A study of Mus musculus with 6 samples.

Results

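The genes described are 39 mouse genes of the Eph, ephrin, Slit, Robo and netrin guidance systems. They were measured by RNA sequencing of cells sorted as motor neurons (MNs), grown from control and spinal muscular atrophy (SMA) mouse embryonic stem cells (mESCs). They comprise 14 Eph receptors, 8 ephrins, 3 Slits, 3 Robos, 3 netrins, 6 netrin receptors and 2 repulsive guidance molecules (RGMs), of which 16 are ligands and 23 are receptors. They were taken by symbol from a table of 34433 gene symbols, as members of these families. Where a symbol had more than 1 entry, the entry with the highest level was used. All 39 symbols were found.

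These molecules steer growing axons by contact or by gradients. Eph receptors are receptor tyrosine kinases that bind ephrins on neighbouring cells, and both partners can signal into the cell that carries them. Ephrin-As are held in the membrane by a lipid anchor, whereas ephrin-Bs span it. Slits are secreted proteins that repel axons through Robo receptors. Netrins attract axons through Dcc and repel them through the Unc5 receptors, and RGMs act through neogenin (Neo1). In the spinal cord, floor plate cells release netrin and Slits at the midline, and Eph receptors on motor axons help to choose their path into the limb.

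The control line Hb9 carries the human SMN2 transgene and functional mouse Smn (SMN2+/+;mSmn+/+, labelled wildtype), and the SMA line A2 carries the same transgene without functional mouse Smn (SMN2+/+;mSmn-/-). Both lines, labelled FVB/N, express eGFP from the promoter of Hb9 (Mnx1), and each genotype is represented by 1 mESC line. Embryoid bodies received 1 µM retinoic acid and 1 µM Smoothened agonist over 5 days, and the viable GFP-positive cells were then sorted, so that the gate selects by activity of 1 promoter. The name MNs is used here for the cells in that gate, whatever their other markers. RNA came from 3 samples per genotype, which nothing in the labels describes as separate cultures or days.

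The deposited table holds 1 FPKM value (fragments counted per length of transcript and per number of mapped fragments) per gene and genotype, formed by the authors from all 3 samples. No SD, standard error or test of a difference could therefore be computed, the table gives no read counts, so that the reads behind each value are unknown, and each difference below has no replicate check. A gene was counted as lower or higher in A2 SMA MNs where its FPKM differed by at least 2-fold, with the higher of its values at 1 FPKM or more and neither at 0. Genotype and cell line cannot be told apart, and in sorted bulk RNA fewer cells of a type and less RNA per cell cannot be told apart either.

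Smn1, the mouse gene deleted in the SMA line, had 137 FPKM in the control and 5.26 FPKM in the SMA line, 25.9-fold lower. Of the MN marker list, 6 of the 7 genes past the filter were lower in A2 SMA MNs. The 8 listed genes found in the table, Mnx1 included, summed to 242 FPKM in Hb9 and 63.9 FPKM in A2, and sums for other marker lists are likewise over every gene found. Mnx1, whose promoter drives the reporter, stood at 41.2 and 44.2 FPKM. Isl1, a MN transcription factor, stood at 108 and 5.95 FPKM, Lhx3, its partner, at 27.6 and 0.348 FPKM, and Chat, which makes acetylcholine, at 15.5 and 0.344 FPKM. The sorted A2 cells thus had Mnx1 near the level of the control, with Lhx3 and Chat below 1 FPKM. All 9 pluripotent cell markers past the filter were higher in A2, with a sum of 227 FPKM in Hb9 and 1519 FPKM in A2.

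Over all 15784 symbols past the filter, 22.2% were at least 2-fold lower in A2 SMA MNs and 6.78% at least 2-fold higher. The median log2 ratio of A2 to Hb9 was -0.29, with quartiles of -0.89 and 0.19. Relative to that median, 16.5% were lower and 10.3% were higher.

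Of the 39 guidance genes, 37 passed the filter. Of these, 25 (67.6%) were at least 2-fold lower in A2 SMA MNs and 1 (2.7%), Epha2, was at least 2-fold higher, beside the 22.2% and 6.78% of all symbols. The log2 ratio was below 0 for 32 genes and above 0 for 5, and its median was -1.82, beside -0.29 for all symbols. Relative to the median symbol, 21 of 37 genes were lower, beside 16.5% of all symbols, and 1 was higher, beside 10.3%. The 4 genes that lost the call on that scale were Epha4, Ephb6, Efnb2 and Robo1. A difference of at least 4-fold downward was found in 16 genes, and of at least 8-fold in 9. Of all symbols, 8.92% had a ratio at or below that of Ephb2 (-1.99, close to 4-fold). The share at or below that of Ntn1 (-2.98, close to 8-fold) was 4.26%. The 37 guidance genes with a table entry not shared with another gene summed to 1695 FPKM in Hb9 and 379 FPKM in A2 (4.48-fold lower). Without the 5 of them that bear the authors' status FAIL (explained below), the sums were 776 and 249 FPKM (3.12-fold lower). The ligands were 6.6-fold lower in sum (1286 and 195 FPKM, 14 genes) and the receptors 2.22-fold lower (409 and 184 FPKM, 23 genes). By count they were close, with 11 of 16 ligands (68.8%) and 14 of 21 receptors (66.7%) lower, beside 22.2% of all symbols. Their median log2 ratios were -2.25 and -1.73. The ligand sum in Hb9 was led by Ntn1 (383 FPKM), Slit1 (258 FPKM) and Rgma (215 FPKM), and the receptor sum in A2 by Epha2 (52.2 FPKM).

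**Figure D1:**
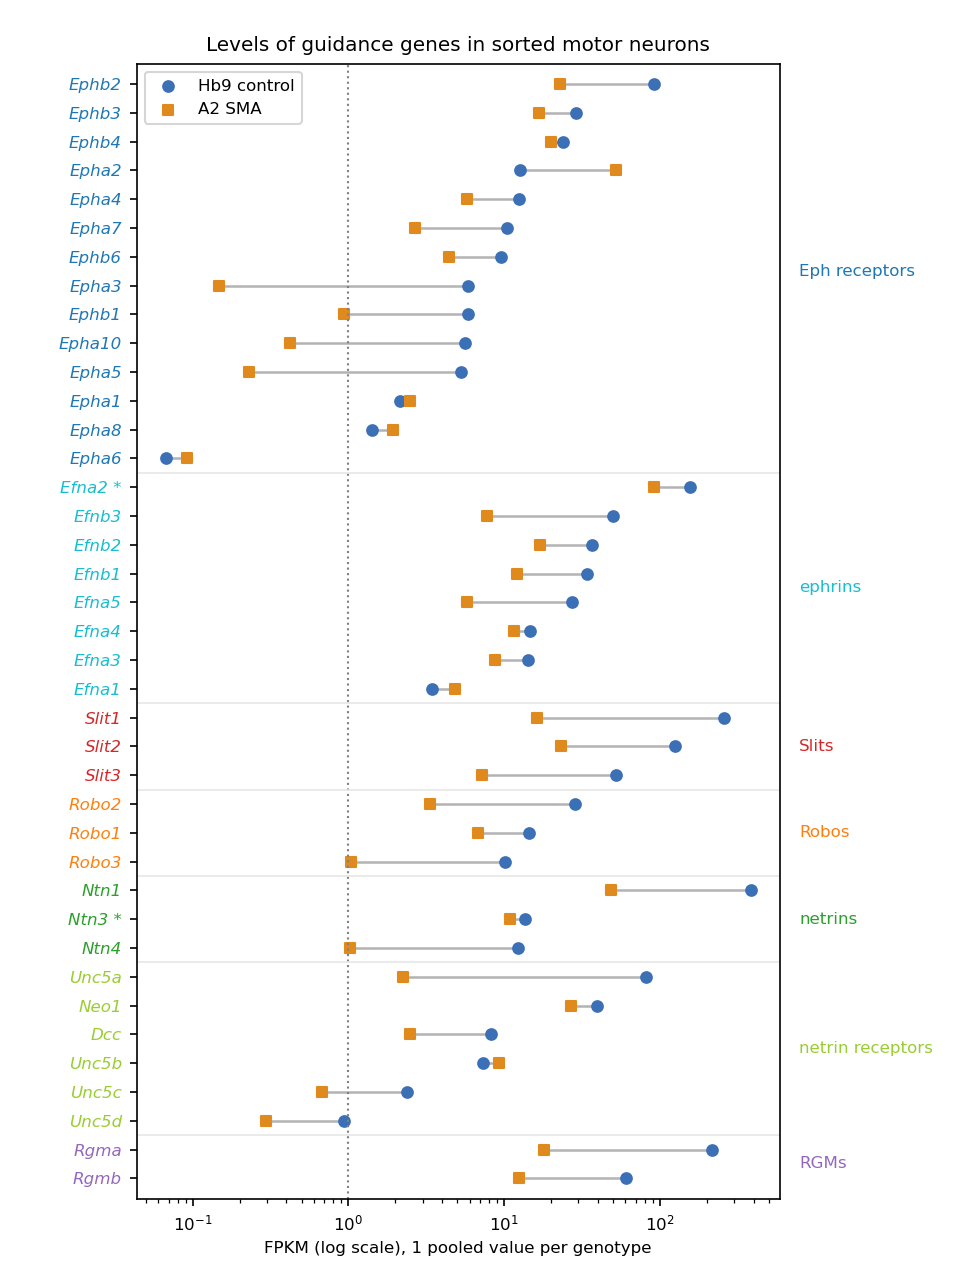
FPKM of the 39 guidance genes on a log axis, with 1 pooled value per genotype (circles, Hb9 control; squares, A2 SMA), grouped by family. The dotted line marks 1 FPKM, an asterisk marks an entry shared with another gene, and the square lies to the left of the circle for most genes, with Epha2 the widest exception.

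The 1 gene at least 2-fold higher and the 3 lowest ratios among genes with a RefSeq promoter entry were Epha2, and Epha3, Unc5a and Epha5. The choice of Epha3 and Epha5 depends on forming ratios without a pseudocount. With 1 FPKM added, Robo2 (-2.77), Slit3 (-2.71) and Ntn4 (-2.71), which also have an entry, lay below Epha3 (-2.58) and Epha5 (-2.36). To show the DNA before the start sites of these extremes, the 250 bases upstream of each start are given 5′ to 3′ from RefSeq, build GRCm38.p6, with GC boxes (GGGCGG or its complement CCGCCC) in capitals. The Epha2 promoter lies on the plus strand at chr4:141300971-141301220, that of Epha3 on the minus strand at chr16:63864176-63864425, that of Unc5a on the plus strand at chr13:54949161-54949410 and that of Epha5 on the minus strand at chr5:84417383-84417632.
Epha2: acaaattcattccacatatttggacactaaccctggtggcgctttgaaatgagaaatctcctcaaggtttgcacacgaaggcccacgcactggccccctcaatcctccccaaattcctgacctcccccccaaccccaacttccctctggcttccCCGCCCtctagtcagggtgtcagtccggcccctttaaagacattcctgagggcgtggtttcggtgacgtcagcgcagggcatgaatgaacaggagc
Epha3: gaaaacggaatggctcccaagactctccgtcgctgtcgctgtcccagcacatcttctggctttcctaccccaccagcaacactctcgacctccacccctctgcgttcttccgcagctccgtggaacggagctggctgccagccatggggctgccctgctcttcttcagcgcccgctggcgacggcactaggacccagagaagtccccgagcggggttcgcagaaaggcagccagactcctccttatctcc
Unc5a: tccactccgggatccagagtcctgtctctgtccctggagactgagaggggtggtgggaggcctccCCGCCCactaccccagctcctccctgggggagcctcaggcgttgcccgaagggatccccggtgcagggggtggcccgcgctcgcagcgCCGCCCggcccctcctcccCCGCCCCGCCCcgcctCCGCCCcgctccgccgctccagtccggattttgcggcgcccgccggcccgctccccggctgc
Epha5: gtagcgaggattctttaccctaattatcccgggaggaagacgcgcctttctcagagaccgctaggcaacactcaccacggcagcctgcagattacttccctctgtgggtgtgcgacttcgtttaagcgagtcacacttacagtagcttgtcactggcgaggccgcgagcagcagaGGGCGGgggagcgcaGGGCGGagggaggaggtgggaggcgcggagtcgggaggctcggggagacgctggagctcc

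The Epha2 promoter holds 9 CpG dinucleotides and 1 GC box, at a GC content of 55.6%. That of Epha3 holds 16 CpGs and 0 GC boxes, that of Epha5 holds 20 CpGs and 2 GC boxes, and that of Unc5a holds 25 CpGs and 5 GC boxes, of which a pair overlaps, at a GC content of 76.8%. The other motifs searched on both strands were the CCAAT box (CCAAT), the TATA box (letters TATAAA) and an E-box (letters CAGCTG), and none of the 4 windows contains any of them. RefSeq promoters were used for 33 of the 39 genes, with 40 start sites. Any entry of these genes on chromosome 18, where Dcc lies, was left out, whereas the comparison sets kept that chromosome. A GC box stood in 29 of the 40 windows (72.5%), beside 57.1% of the 12831 promoters of symbols past the FPKM filter and 32.7% of all 32851 promoters. The CCAAT box was found in 37.5% of the members' windows, beside 35% for symbols past the filter, the TATA box in 10% beside 6.41%, and the E-box in 10% beside 12.4%. The median CpG number was 18 in the members' windows, 15 for symbols past the filter and 6 for all promoters. A letter match is a description of these windows and no evidence of a bound factor.

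Of the 14 Eph receptors, 13 passed the filter, with 8 lower, 1 higher and 4 neither, beside 22.2% lower and 6.78% higher of all symbols. On the scale relative to the median symbol, 6 of 13 were lower, beside 16.5%. Their median log2 ratio was -1.11, or -1.98 over the 11 receptors that reached 5 FPKM, and their sum was 215 FPKM in Hb9 and 131 FPKM in A2. The 5 EphB receptors summed to 159 FPKM in Hb9 and 65 FPKM in A2 (2.45-fold lower). The 9 EphA receptors summed to 56.1 FPKM in Hb9 and 65.9 FPKM in A2, and to 43.4 and 13.8 FPKM without Epha2 (3.15-fold lower).

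Epha2 (chr4:140845931-140885299, NCBI m37), a receptor known from epithelia and embryonic stem cells, stood at 12.7 FPKM in Hb9 and 52.2 FPKM in the sorted A2 cells, 4.11-fold higher. By level it had rank 20 among the 37 guidance genes with an entry of their own in Hb9 and rank 1 in A2. Its share of the summed Eph receptor FPKM was 5.89% in Hb9 and 39.8% in A2. Only 5 guidance genes had log2 ratios above the third quartile of all symbols, and Epha2 stood at the 98.3 percentile of all symbols. Pluripotent cell markers were higher in the same sorted A2 population (above), and their part in the Epha2 value was not tested.

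Epha3 (chr16:63543364-63863984), carried by axons to axial muscle, showed the lowest log2 ratio of the guidance genes, taken without a pseudocount, with 5.89 FPKM in Hb9 and 0.148 FPKM in A2 (log2 ratio -5.31). Epha5 (chr5:84483842-84846416), which takes part in retinal map formation, stood at 5.31 and 0.231 FPKM (-4.52). Epha10, which lacks kinase activity, stood at 5.62 and 0.42 FPKM (-3.74). These 3 receptors were present at a few FPKM in the control and lay below 1 FPKM in A2, so their ratios rest on low A2 values. With 0.1 FPKM added to each value, the log2 ratio of Epha3 was -4.59 and that of Unc5a, a netrin receptor, was lower at -5.14. Epha7, another retinal and cortical map receptor, stood at 10.5 and 2.68 FPKM (-1.98). Epha4, which sends lateral motor axons into the dorsal limb, stood at 12.4 and 5.77 FPKM (-1.11). Epha1 was close in both genotypes at 2.14 and 2.49 FPKM (0.22), as was Epha8 at 1.42 and 1.93 FPKM (0.44).

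Ephb2, a receptor of commissural and medial motor axons, was the most abundant Eph receptor of the control at 91.1 FPKM, and stood at 22.9 FPKM in A2 (-1.99). Its share of the Eph receptor sum was 42.3% in Hb9 and 17.5% in A2. Ephb1, which directs retinal axons at the chiasm, stood at 5.83 and 0.932 FPKM (-2.65). Ephb6, whose kinase is inactive, stood at 9.53 and 4.4 FPKM (-1.11). The other EphB receptors were below 2-fold. Ephb3, which acts with Ephb2 in the corpus callosum, stood at 28.9 and 16.8 FPKM (-0.78). Ephb4, the receptor of veins, stood at 23.9 and 19.9 FPKM (-0.26). Relative to the median symbol, Ephb4 lay above 0 (0.03), the only guidance gene whose sign turned. Epha6, a receptor below the filter, and Unc5d, a netrin receptor below it, ranged from 0.0671 to 0.931 FPKM over both genotypes.

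**Figure D2:**
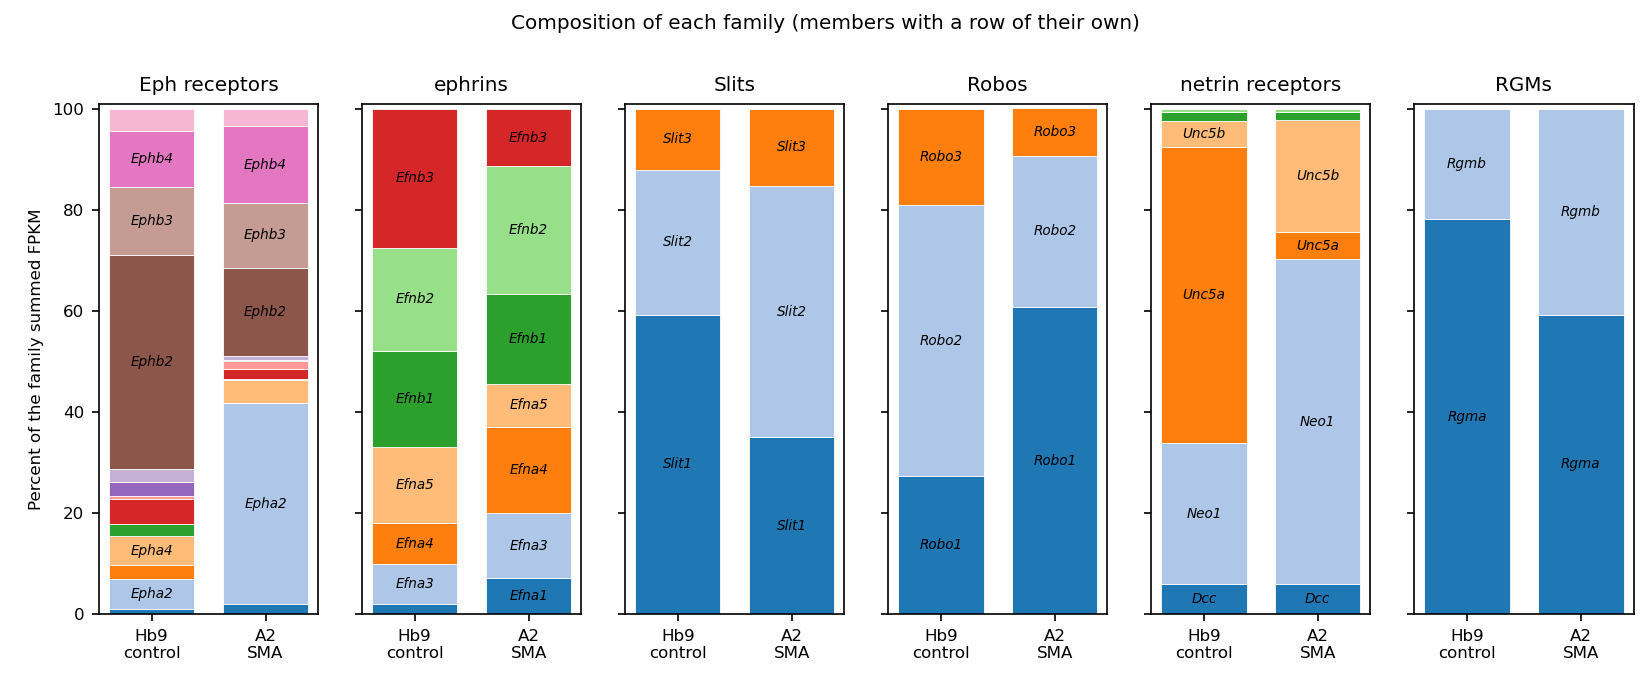
Share of each gene in the summed FPKM of its family (y axis, percent) in Hb9 control and A2 SMA MNs, over genes with an entry of their own. Segments of at least 5% carry the gene symbol. Epha2 takes 39.8% of the Eph receptor sum in A2, Robo1 takes 60.7% of the Robo sum and Unc5a takes 58.5% of the netrin receptor sum in Hb9 and 5.35% in A2.

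Of the 8 ephrins, 4 were at least 2-fold lower and 0 higher in A2, beside 22.2% and 6.78% of all symbols, with a median log2 ratio of -0.94. Relative to the median symbol, 3 of 8 were lower, beside 16.5% of all symbols. The 3 ephrin-Bs were all lower, with sums of 120 and 36.9 FPKM (3.26-fold). Efnb3, a midline barrier for corticospinal axons, stood at 49.6 FPKM in Hb9 and 7.73 FPKM in A2 (-2.68). Efnb1, the X-linked ephrin, stood at 34.2 and 12.1 FPKM (-1.50). Efnb2, the arterial ligand of Ephb4, stood at 36.7 and 17.1 FPKM (-1.10). Efnb3 had the largest share of the ephrin sum in Hb9, 27.5%, and Efnb2 in A2, 25.2%.

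Among the 5 ephrin-As, 1 (20%) was lower, a share near the 22.2% of all symbols. Efna5, a repellent of retinal and motor axons, stood at 27.1 and 5.81 FPKM (-2.22). Efna3 stood at 14.2 and 8.72 FPKM (-0.71) and Efna4 at 14.7 and 11.6 FPKM (-0.34). Efna1, an endothelial and epithelial ephrin, stood at 3.46 and 4.83 FPKM (0.48). The entry of Efna2 is shared with Cirbp and 1600002K03Rik, and its 156 and 91.4 FPKM (-0.77) cannot be assigned to 1 gene. The 4 other ephrin-As summed to 59.5 and 31 FPKM.

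The 3 Slits and 3 Robos were all at least 2-fold lower, beside 22.2% of all symbols, with a median log2 ratio of -2.98 and sums of 489 and 57.8 FPKM (8.47-fold). Of these 6 genes, 5 were lower relative to the median symbol, beside 16.5%, Robo1 being the exception. Slit1 (chr19:41672313-41818326) stood at 258 FPKM in Hb9 and 16.3 FPKM in A2 (-3.98). Slit2 stood at 125 and 23.1 FPKM (-2.44) and Slit3 at 52.6 and 7.21 FPKM (-2.87). These secreted repellents summed to 436 FPKM in Hb9 and 46.7 FPKM in A2, 9.34-fold lower. Slit1 was the leading Slit of the control with 59.2% of the sum, and Slit2 of A2 with 49.6%. For Slit1 the authors' table bears the status FAIL, given where Cuffdiff could not complete its computation. Without it, the log2 ratio of summed Slit and Robo FPKM was -2.48 in place of -3.08.

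The Robos summed to 53.2 FPKM in Hb9 and 11.1 FPKM in A2 (4.79-fold lower). Robo2, a Slit receptor, led in the control at 28.5 FPKM and stood at 3.32 FPKM in A2 (-3.10). Robo3, which allows commissural axons to reach the midline, stood at 10.1 and 1.04 FPKM (-3.29). Robo1, the other main Slit receptor, was the least different at 14.5 and 6.74 FPKM (-1.11). Its share of the Robo sum was 27.3% in Hb9 and 60.7% in A2, whereas that of Robo2 was 53.6% and 30%.

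**Figure D3:**
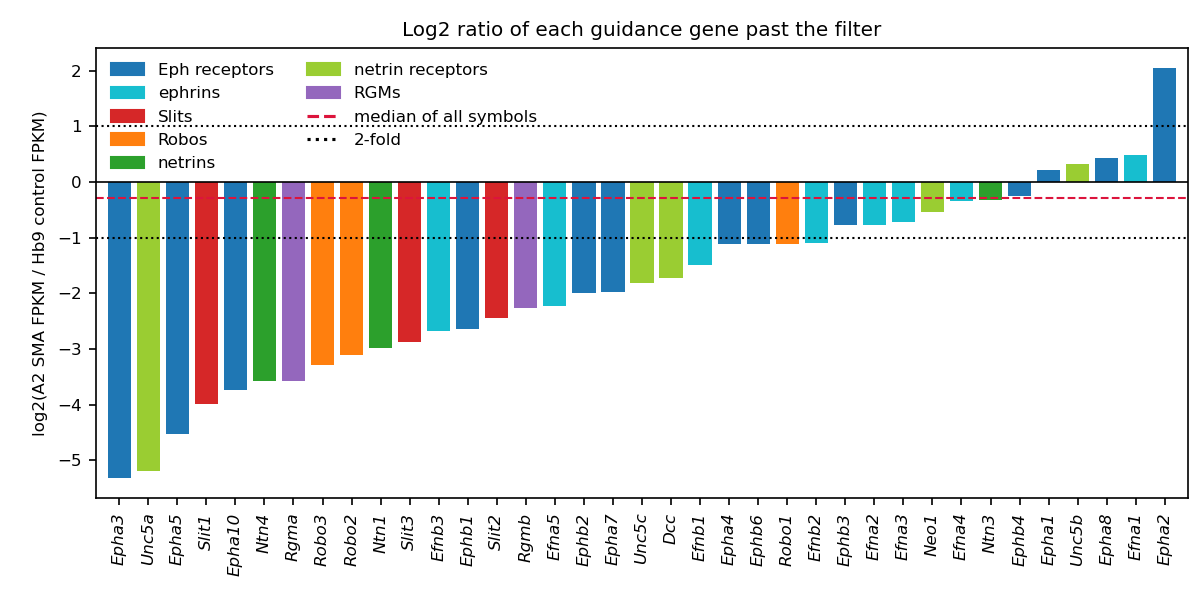
Log2 ratio of A2 SMA to Hb9 control FPKM (y axis) for the 37 guidance genes past the filter, in order of size and coloured by family. Dotted lines mark 2-fold and the dashed line the median of all symbols (-0.29). The ratios run from -5.31 for Epha3 to 2.04 for Epha2, and 5 bars lie above 0.

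Of the 10 netrins, RGMs and receptors past the filter, 7 were lower and 0 higher, beside 22.2% and 6.78% of all symbols, with a median log2 ratio of -2.04. The 7 were also lower relative to the median symbol. Ntn1 (chr11:68022864-68214325), the floor plate attractant, was the most abundant guidance gene of the control at 383 FPKM, and stood at 48.5 FPKM in A2 (-2.98). Of the sum of Ntn1 and Ntn4, the netrins with an entry of their own, Ntn1 made up 96.9% in Hb9 and 97.9% in A2. Ntn4, a netrin of basement membranes, stood at 12.2 and 1.02 FPKM (-3.58). The entry of Ntn3 is shared with Tbc1d24 and stood at 13.7 and 10.9 FPKM (-0.33). Rgma (chr7:80458889-80564838), a repellent that binds neogenin, stood at 215 and 18.1 FPKM (-3.57). Rgmb, a relative that also binds bone morphogenetic proteins, stood at 60.2 and 12.5 FPKM (-2.27). The RGMs summed to 275 and 30.6 FPKM (8.99-fold lower). Ntn1, Ntn3 and Rgma have the status FAIL.

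The 6 netrin receptors summed to 140 FPKM in Hb9 and 41.8 FPKM in A2 (3.35-fold lower), and 3 of the 5 past the filter were lower, beside 22.2% of all symbols. Unc5a (chr13:55050772-55122746), a receptor for repulsion by netrin, stood at 81.9 FPKM in Hb9 and 2.23 FPKM in A2 (-5.20), 36.7-fold lower. Among all symbols past the filter, 0.405% had a ratio as low or lower. By level it had rank 6 in Hb9 and rank 27 in A2 among the 37 guidance genes with an entry of their own. Unc5c, which acts on trochlear and cerebellar neurons, stood at 2.39 and 0.68 FPKM (-1.82). Dcc, the attractive receptor, stood at 8.2 and 2.47 FPKM (-1.73). Neo1, the RGM receptor, stood at 39.2 and 26.9 FPKM (-0.54, status FAIL). Unc5b, the Unc5 receptor of blood vessels, stood at 7.34 and 9.22 FPKM (0.33). The largest share of the receptor sum was thus Unc5a in Hb9 (58.5%) and Neo1 in A2 (64.3%).

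The order of abundance differed between the genotypes. Among genes with an entry of their own, which leaves out Efna2 and Ntn3, Ntn1, Slit1, Rgma and Slit2 came first in Hb9, each above 100 FPKM. In A2, Epha2, Ntn1, Neo1 and Slit2 of these genes came first, and 0 exceeded 100 FPKM. At least 10 FPKM was reached by 24 of these 37 genes in Hb9 and by 13 in A2. Neighbours in these orders cannot be told apart, because no spread between samples is given. Ephb1, Robo3, Ntn4 and Unc5c lay near or below 1 FPKM in A2, and with 1 FPKM added to each value their log2 ratios were -1.82, -2.45, -2.71 and -1.01.

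**Figure D4:**
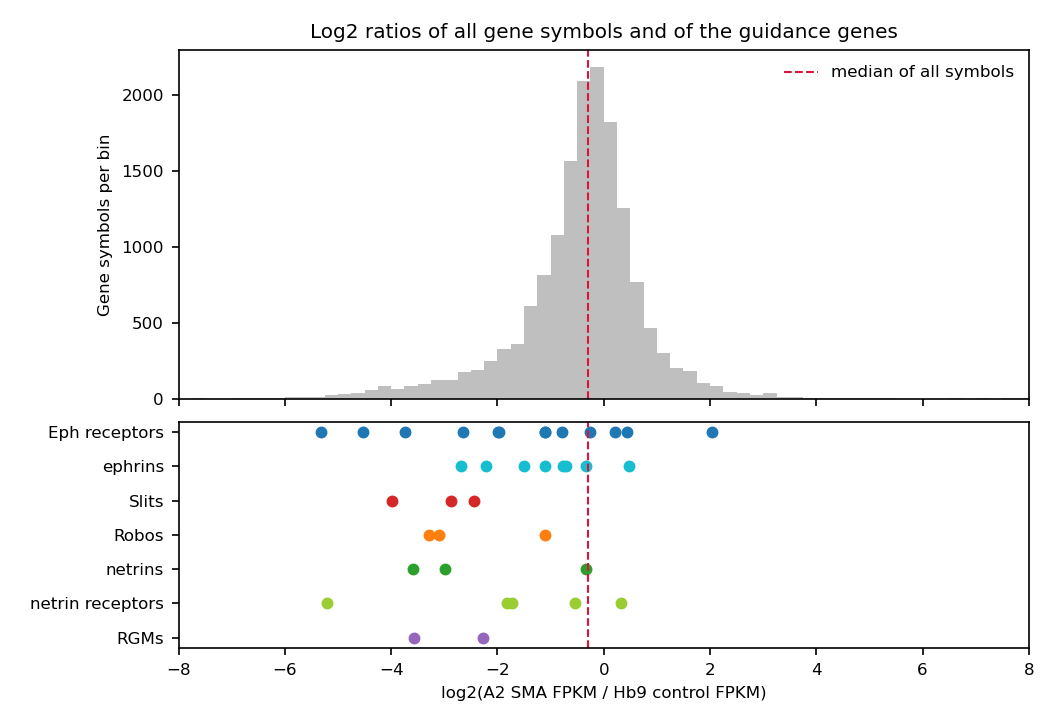
Upper panel, number of gene symbols per bin of log2 ratio (A2 SMA over Hb9 control FPKM) for symbols past the filter; lower panel, the guidance genes on the same axis by family. The dashed line is the median of all symbols (-0.29), and 25 of the 37 guidance genes lie below the first quartile of all symbols (-0.89).

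A list of 82 other genes of these pathways was examined, of which 79 passed the filter. At least 2-fold lower were 29 (36.7%, beside 22.2% of all symbols) and higher were 2, with a median log2 ratio of -0.65. Relative to the median symbol, 22 were lower, beside 16.5% of all symbols, and 2 were higher. The list was divided by role. Of 13 other guidance ligands and receptors past the filter, 9 were lower and 1 higher, with a median of -2.07. Spon1 (F-spondin, a floor plate matrix protein) stood at 196 FPKM in Hb9 and 19.8 FPKM in A2 (-3.31), Nell2 (a ligand of Robo3) at 49.5 and 4.95 FPKM (-3.32), and Draxin (a Dcc ligand, listed as 2610109H07Rik) at 16.7 and 1.38 FPKM (-3.59). Robo4, a Robo of blood vessels named here after its values were seen, was higher at 0.231 and 1.72 FPKM (2.89).

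The 45 cytoplasmic effectors, which carry guidance signals to the cytoskeleton, had a median of -0.46, with 13 lower and 1 higher. Among the lower were Srgap3, which binds Robo receptors (44.5 and 6.97 FPKM, -2.68), and Map1b, a microtubule protein (150 and 19.8 FPKM, -2.93, status FAIL). Vasp and Enah, which extend actin filaments, stood at 96.9 and 149 FPKM (0.62) and at 116 and 179 FPKM (0.62, status FAIL). Of 21 proteases and surface modulators past the filter, 7 were lower and 0 higher, with a median of -0.66. Relative to the median symbol, 4 of those 21, 10 of the 45 effectors and 8 of the 13 other guidance ligands and receptors were lower, beside 16.5% of all symbols. Sdc3, a heparan sulfate proteoglycan, stood at 28.6 and 5.06 FPKM (-2.50), and Mmp2, a secreted protease, at 31.2 and 8.85 FPKM (-1.82). Counts for the effectors (28.9% lower) and for the proteases (33.3%) were closer to the 22.2% of all symbols than those for the ligands and receptors.

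Markers of several cell types that use or release these cues were lower as well. The 9 pan-neuronal markers past the filter were all lower, beside 22.2% of all symbols, with sums of 1470 FPKM in Hb9 and 147 FPKM in A2. Neural progenitor markers were lower in 6 of 7 (872 and 44.9 FPKM) and floor plate markers, Shh among them (67.2 and 12.6 FPKM), in 6 of 7 (361 and 70.7 FPKM). Interneuron markers were lower in 5 of 7 (49.9 and 16.3 FPKM), and motor column and pool markers were lower in 5 of 11 and higher in 1 (329 and 192 FPKM). Endothelial markers were higher in 2 and lower in 1 of 5 (30.3 and 77.9 FPKM), most of the sum being Pecam1 (21.8 and 68.7 FPKM). Fibroblast markers were lower in 4 and higher in 1 of 7 (68.9 and 34.9 FPKM), and endoderm markers lower in 1 of 4 (32 and 20.8 FPKM). Relative to the median symbol, 5 of 7 floor plate, 1 of 7 fibroblast and 0 of 4 endoderm markers were lower, beside 16.5% of all symbols, and 3 of 5 endothelial markers were higher, beside 10.3%. None of the listed markers was at 0 in either genotype, Slc18a3, Tubb3 and Sox1 not having been matched. The part of these cell types in the levels of the guidance genes was not tested.

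**Figure D5:**
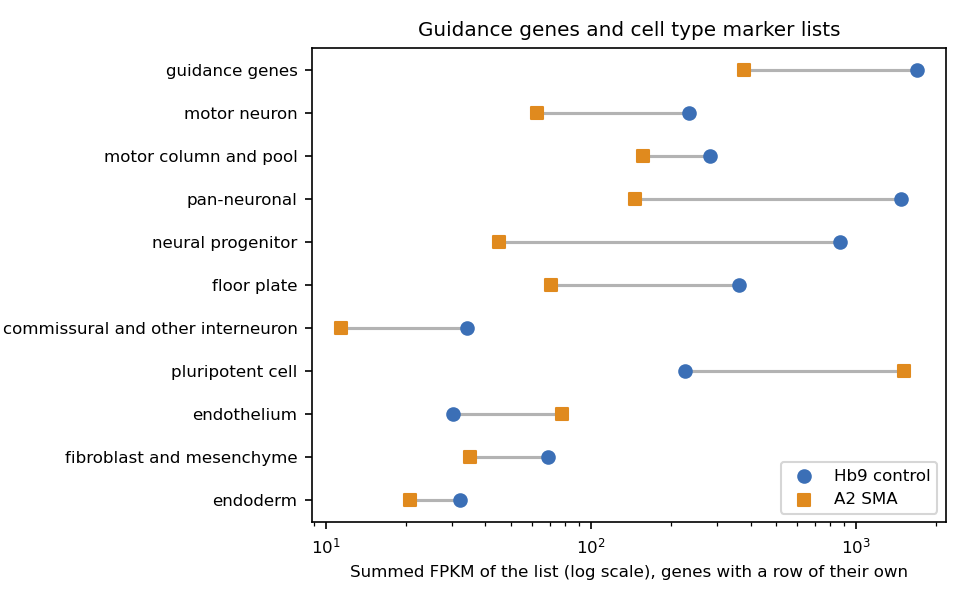
Summed FPKM (x axis, log scale) of the guidance genes and of 10 cell type marker lists in Hb9 control (circles) and A2 SMA (squares) MNs, over genes with an entry of their own. The pluripotent cell list (227 and 1519 FPKM) and the endothelial list are higher in A2. The guidance genes and all other lists are lower, the fibroblast and endoderm lists among them.

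The length of the locus in the table also moved with the ratios. Of the 19 guidance genes past the filter with a locus of at least 100 kb, 17 (89.5%) were lower and the median log2 ratio was -2.44. Over the 2976 symbols of that length past the filter, 31.5% were lower and the median was -0.45. Of the 18 shorter guidance genes, 8 were lower and 1 was higher, with a median of -0.78, beside 20% lower and -0.26 for the 12808 shorter symbols. Epha2 and Unc5a have short loci (39.4 and 72 kb) and Epha3 a long one (320.6 kb). The part of locus length in these values was not tested.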

How the data were processed

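Sorted MNs of 3 samples per genotype gave RNA for single-end sequencing. Per the labels and methods, the authors trimmed reads (cutadapt), checked them (FastQC 0.10.1), mapped them with TopHat2 (2.04) to NCBI m37, assembled transcripts with Cufflinks and compared genotypes with Cuffdiff. The deposited values are FPKM, which the authors pooled to 1 value per gene and genotype. Columns of the authors' fold change, test statistic, p-value and q-value were not used. The status column served only as a description and for 1 alternative.

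Symbols were read from the table, the entry with the highest FPKM was kept, and log2 ratios were formed without a pseudocount (Python 3.11.15, numpy 2.4.6, pandas 2.3.3, matplotlib 3.10.9). The calculation was checked on simulated data. Calls needed 2-fold, a higher value of at least 1 FPKM and no value at 0. Nothing was tested, since each genotype has 1 value, and whole reads could not be recovered. Loci are in NCBI m37, with starts counted from 1. Promoters are from RefSeq in GRCm38.p6, cut to the 250 bases before the start, searched on both strands, with overlapping matches counted. The E-box searched was CAGCTG, a palindrome.

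The genes and lists were chosen with earlier results of these data known. All members past the filter are named. Of other lists, at most the 4 most abundant and the 2 highest and 2 lowest ratios among genes of at least 5 FPKM are named. Robo4 was added after its values were seen, and 1 gene that the rule names is not reported here. Alternatives were a filter of 5 FPKM or none, adding 0.1 or 1 FPKM as a pseudocount, limits of 1.5-fold and 4-fold, summed entries, single-symbol entries, status FAIL left out, and scaling to the median symbol, the upper quartile or Gusb, Pgk1 and Rpl13a. A count was held to have moved beyond 1.5 times, and a log2 value beyond 0.585.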

Additional observations from a re-analysis of the deposited data

How the results depend on the processing

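No paired analysis was possible because the table gives 1 pooled value per genotype, and for the same reason no replicate could be left out. Of the values recomputed for counts, medians and sums, 121 stayed within 1.5 times (log2 values within 0.585) and 9 moved, and none turned its direction. With a 4-fold limit, 16 guidance genes were lower in place of 25, where 8.92% of all symbols lay at or below -1.99. With a filter of 5 FPKM, the median of the Eph receptors was -1.98 over 11 genes in place of -1.11. With status FAIL left out, the summed ratio of Slits and Robos was -2.48 in place of -3.08, because Slit1 was dropped. Among the other pathway genes, 44 were lower at 1.5-fold and 12 at 4-fold in place of 29, and 5 were higher at 1.5-fold in place of 2. That number was 1 at 4-fold, with a pseudocount of 1 FPKM and with a filter of 5 FPKM.

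For single guidance genes, 350 values stayed within 0.585 and 8 moved, all 8 toward 0 with a pseudocount. With 1 FPKM added, Epha3 had a log2 ratio of -2.58, Epha5 of -2.36, Epha10 of -2.22, Ephb1 of -1.82, Robo3 of -2.45, Ntn4 of -2.71 and Unc5c of -1.01, each still past 2-fold. Scaling subtracted -0.29 (median symbol), -0.33 (upper quartile) or -0.14 (Gusb, Pgk1 and Rpl13a). All 26 genes past 2-fold kept their sign under every alternative that gave them a value. Ephb4 turned to 0.03 and 0.08 under the scalings to the median symbol and the upper quartile, and under the latter Efna4 stood at -0.01 and Ntn3 at 0.00. Differences between samples, and the reads behind low FPKM, could not be examined.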

Other observations

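Some guidance genes lie near each other in the genome. Robo4, which is not among the 39 genes, and Robo3 are 1.6 kb apart on chromosome 9, with log2 ratios of 2.89 and -3.29. The ratio of Robo4 rests on low values, 0.231 FPKM in Hb9 and 1.72 FPKM in A2. Ephb2 and Epha8 are 82.1 kb apart on chromosome 4, with -1.99 and 0.44. Efna1, Efna3 and Efna4 lie in a cluster on chromosome 3 with gaps of 32.8 and 10.4 kb, with 0.48, -0.71 and -0.34. Ephb6 and Epha1 are 729.3 kb apart on chromosome 6, with -1.11 and 0.22. Robo1 and Robo2 are 846.1 kb apart on chromosome 16, with -1.11 and -3.10. The pair of Robo4 and Robo3 was chosen after its values were seen, and none of these differences was tested.

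Epha5 has a pair of entries with the same locus in the table. The entry used stood at 5.31 FPKM in Hb9 and 0.231 FPKM in A2, and the other at 2.98 and 0.13 FPKM.

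Of the guidance genes past the filter, 6 of 37 (16.2%) had the status FAIL, beside 13.9% of all symbols. They were Slit1, Ntn1, Rgma, Neo1, Ntn3 and Ephb4, of which Slit1, Ntn1 and Rgma were the 3 most abundant guidance genes of the control with an entry of their own. Without those 6, 22 of 31 genes (71%) were at least 2-fold lower and 1 was higher, beside 22.2% and 6.78% of all symbols, FAIL included. Of the 2188 symbols with status FAIL, 15.7% were lower and 5.53% higher.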
